A study of Mus musculus with 8 samples.

Results

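Peaks of N6-methyladenosine (m6A) that lay in exons of noncoding genes were examined in mouse VSMCs (vascular smooth muscle cells, which line the artery wall and contract it). A peak summit belonged to this set if it fell in an annotated exon of a gene that GENCODE M21 does not class as protein-coding, and in no exon of a protein-coding gene. Of 42744 summits in 4 peak lists, 1240 met this rule. Merged over the lists wherever they shared at least 1 bp, their intervals formed 430 regions, each of which fell in 1 of the 11361 regions of the whole series. They covered exons of 339 genes of the 33499 genes annotated as noncoding.

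The cells were primary VSMCs from the descending aorta of adult C57BL/6J mice, stripped of adventitia and endothelium and expanded over several passages. They were transduced with lentivirus that carried a short hairpin RNA against Mettl14 (shMettl14) or a nontargeting hairpin against a plant microRNA (shCTR). Fragmented total RNA was sequenced before (input) and after immunoprecipitation with an antibody against m6A (IP), each hairpin having replicates A and B, which gives 4 IP and 4 input samples and 1 peak list per IP sample. The sources used here do not say whether A and B were separate cell isolations, so p-values measure only the spread between these lists. Of the markers set for each cell type, 3 of 8 for smooth muscle, 3 of 4 for endothelium, 1 of 4 for macrophages and 1 of 4 for fibroblasts had a summit. The smooth muscle genes Lmod1 and Cald1 had one in all 4 lists and Myh11 in 3, while Acta2, Tagln, Cnn1, Smtn and Myocd had none. The endothelial Pecam1 and Cdh5 had one in all 4 lists and Kdr in 3. The macrophage marker was Csf1r, in shMettl14 B alone, and the fibroblast one Pdgfra, in all 4 lists. A peak list does not measure expression.

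m6A is written into RNA by a complex in which METTL3 is the catalytic subunit and METTL14 holds the RNA substrate. The complex prefers the motif DRACH (A, G or T first, A or G second, then AC, then any base but G), and the form GGACT is among its favoured ones. The mark is best known from long internal exons and the 3′ ends of mRNAs, but long noncoding RNAs (lncRNAs) such as Malat1 and Xist carry it too, where it can alter RNA structure and the binding of proteins.

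The sequences around a selection of noncoding peaks show how these sites look. For 7 of the 12 regions that ranked highest by fold enrichment on average over the lists and for Peg13, the strongest region of the sense intronic class, the 101 nt centred on the summit of the list with the highest percentile are given 5′ to 3′ on the strand of the annotated gene (GRCm38), with DRACH motifs in capitals.
2610507I01Rik, chr11:59199957-59200057, minus strand: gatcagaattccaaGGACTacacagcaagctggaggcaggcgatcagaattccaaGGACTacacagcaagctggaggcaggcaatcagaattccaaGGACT
Zswim6 locus, chr13:107726693-107726793, minus strand: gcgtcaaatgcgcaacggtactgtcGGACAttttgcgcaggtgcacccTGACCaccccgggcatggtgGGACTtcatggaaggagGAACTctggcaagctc
2900097C17Rik, chr2:156392077-156392177, minus strand: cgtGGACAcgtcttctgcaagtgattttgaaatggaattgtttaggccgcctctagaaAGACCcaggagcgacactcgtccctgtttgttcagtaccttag
Gm20796, chr8:20887905-20888005, minus strand: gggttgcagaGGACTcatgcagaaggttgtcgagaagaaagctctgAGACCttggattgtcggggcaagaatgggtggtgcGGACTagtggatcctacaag
B130055M24Rik, chr7:127459736-127459836, plus strand: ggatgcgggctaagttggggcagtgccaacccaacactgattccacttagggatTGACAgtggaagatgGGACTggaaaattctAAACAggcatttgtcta
Gm4430, chr2:129198469-129198569, minus strand: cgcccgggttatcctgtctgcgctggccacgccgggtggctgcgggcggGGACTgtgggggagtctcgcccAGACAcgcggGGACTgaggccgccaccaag
Tug1, chr11:3640404-3640504, minus strand: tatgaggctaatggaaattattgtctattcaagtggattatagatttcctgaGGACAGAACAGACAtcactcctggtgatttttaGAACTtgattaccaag
Peg13, chr15:72807011-72807111, minus strand: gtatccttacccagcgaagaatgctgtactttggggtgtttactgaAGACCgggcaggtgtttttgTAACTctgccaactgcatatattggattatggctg

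The 2610507I01Rik window holds GGACT 3 times inside a repeated unit. Over the whole 536-bp region GGACT occurred 7 times on the gene strand, and 3 of the 6 steps between neighbours were exactly 41 nt. Windows with 3 GGACT were rare, being 8 of the 1195 noncoding windows whose genes lie on 1 strand, against 29 with 2, 214 with 1 and 944 with none. The Tug1 and Peg13 windows hold DRACH but no GGACT, as does 2900097C17Rik, whose whole 418-bp region has none. The windows of AI506816 and Gm47175, also among the highest ranked but not printed, hold no GGACT either.

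Noncoding exons held 318 summits of replicate A and 249 of replicate B of shCTR, and 404 and 269 summits of replicates A and B of shMettl14. Values of the 4 lists are given in this order throughout. As a share of all summits of the list this was 2.85%, 2.88%, 2.95% and 2.91%. Both shMettl14 shares were above both shCTR shares, by little: 2.86% ± 0.0191 (SD, n = 2) against 2.93% ± 0.0340 (SD, n = 2), a difference of 0.0668 percentage points. The exact permutation test over the lists gave a two-sided p of 0.333, the smallest that 2 lists against 2 can give, and 0.667 after Benjamini-Hochberg adjustment over both shares compared between the hairpins. The lists overlapped with only summits of at least 4 in −log10 q (0.0124 points, exact p of 0.667), with 1 summit per interval (0.176 points, exact p of 1) and as a share of exonic summits (0.0463 points, exact p of 0.667). The lists held 11158, 8655, 13675 and 9256 summits in all, so shMettl14 A had most noncoding summits and most summits of any kind.

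By class, pseudogenes (degenerate copies of genes) held 386 summits on 111 genes and lincRNAs (lncRNAs between coding genes) 322 on 76. Processed transcripts, a GENCODE class of noncoding RNAs without an open reading frame, held 187 on 50 genes, and antisense RNAs 148 on 51. Bidirectional promoter RNAs, which start next to a coding gene and run the other way, held 95 on 25 genes, and TEC loci, a class awaiting experimental evidence, 66 on 23. The sense intronic class held 31 summits, all in Peg13, and the 5 others lay in 2 genes of the miRNA type.

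**Figure D1:**
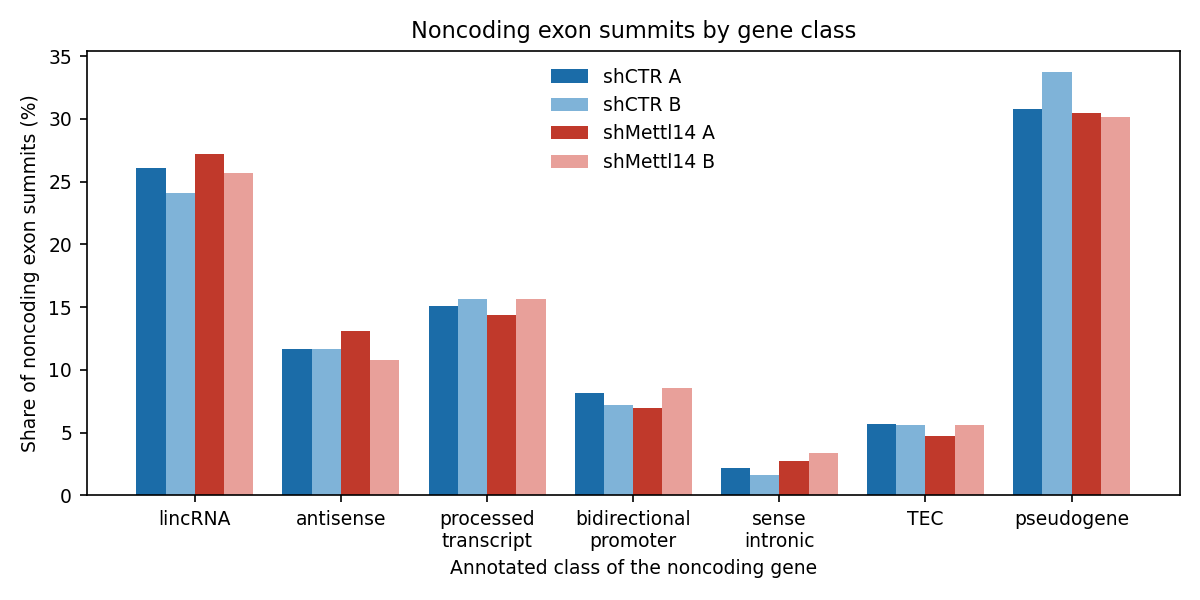
Share of the noncoding exon summits of each list (vertical axis, percent) by annotated class of the gene (horizontal axis); 1 bar per list, so no error bar is drawn, and the 5 summits in miRNA genes are left out. Pseudogenes (30.1% to 33.7%) and lincRNAs (24.1% to 27.2%) were the 2 classes with most summits in every list.

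Pseudogenes took 30.8% and 33.7% of the noncoding summits in shCTR and 30.4% and 30.1% in shMettl14, and sense intronic summits 2.20% and 1.61% against 2.72% and 3.35%. These shares, and that of TEC loci, did not overlap between the hairpins, which gives the smallest possible exact permutation p of 0.333. Adjusted over the 8 classes that is 0.889, and with 2 lists against 2 no class could have passed the threshold.

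Where a noncoding summit lies is a matter of annotation as well. In RefSeq, 207 of the 1240 summits lay in an exon of a coding transcript on either strand, predicted transcripts included. This held for 48.5% of TEC summits, 24.8% of lincRNA, 22.3% of antisense, 15.5% of processed transcript and 6.74% of pseudogene summits. The antisense share can therefore include exons of the coding gene on the opposite strand. Gm7265, a TEC locus with 14 summits, coincides with a RefSeq coding exon of Nedd4, a ubiquitin ligase, and the noncoding Zswim6 entry with one of Zswim6. Inside the body of a coding gene lay 200 summits on the same strand, Peg13 in Trappc9 among them, and 115 on the opposite strand. Only 30 lay within 5 kb past the 3′ end of a coding gene on the same strand. They made up 3.57%, 1.24%, 2.31% and 2.72% of the noncoding summits, once 45 summits on genes of both strands were left out. The exact permutation p between the hairpins was 1 (difference 0.111 points, n = 2 lists each).

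Noncoding summits sat in long exons. Of the 1240, 1051 were in the last exon of a transcript of their gene, which was 83.5% to 86.2% of a list against 72.0% to 73.0% for coding exon summits. In each list 43.0% to 44.6% of noncoding summits lay on transcripts of a single exon, where the only exon is also the last. The median exon length was 1944.5, 1862, 2113 and 2173 nt, against 2321 to 2368 nt for summits in coding exons. Exons of at least 400 nt held 91.8%, 90.8%, 92.8% and 91.8% of noncoding summits. For coding exon summits this was 98.4%, 98.8%, 97.9% and 98.5%. The noncoding share was the lower in 4 of 4 lists, by 6.56 points ± 1.21 (SD over 4 lists), with an exact sign-flip permutation p of 0.125, the smallest that 4 lists can give, and 0.208 adjusted over 5 such within-list differences.

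GGACT was more frequent on the strand of the gene than on the other. Within 50 nt of the summit it occurred in 20.5%, 20.7%, 19.5% and 24.1% of noncoding windows on the strand of the gene. On the opposite strand it occurred in 6.49%, 9.13%, 7.46% and 7.39%. The gene strand was higher in 4 of 4 lists, by 13.6 points ± 2.32 (SD over 4 lists; exact sign-flip permutation p of 0.125, the smallest possible, adjusted 0.208). The peak lists carry no strand, so it was taken from the annotation alone, and 45 summits on genes of both strands were left out. Without the summits in RefSeq coding exons the difference was 14.0 points, and without windows that have a copy elsewhere in the genome it was 15.8 points.

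**Figure D2:**
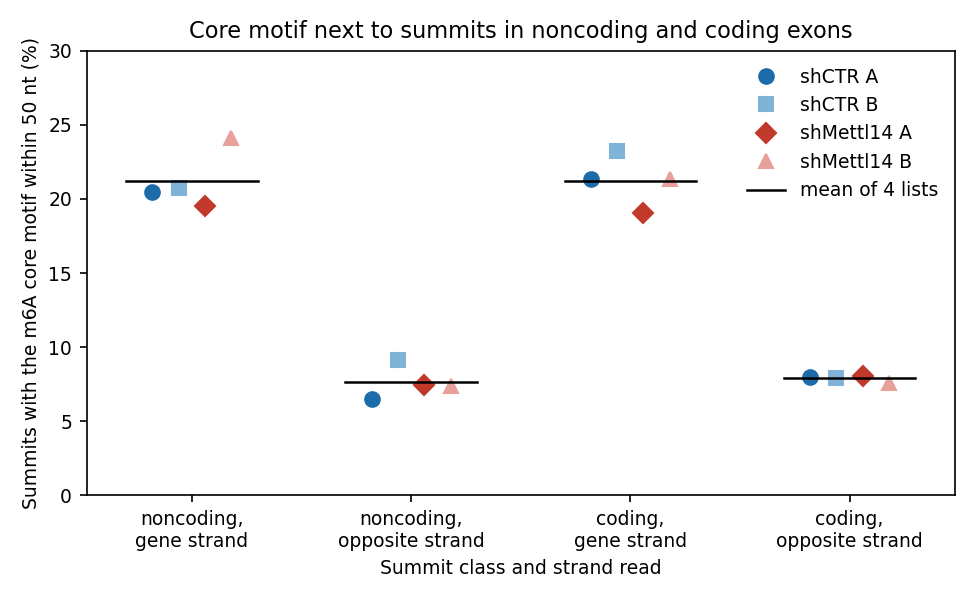
Share of summits with the core motif GGACT within 50 nt (vertical axis, percent) for summits in noncoding and coding exons, read on the gene strand or the opposite strand; points are the 4 lists and horizontal lines their mean. The noncoding points sit between 19.5% and 24.1% on the gene strand and between 6.49% and 9.13% on the opposite strand.

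Coding exon summits held GGACT in windows of the same length at 21.3%, 23.2%, 19.05% and 21.4% on the gene strand and at 7.61% to 8.03% on the opposite strand. Noncoding minus coding was −0.886, −2.47, 0.488 and 2.76 points in the same order of lists, with a mean of −0.0261 ± 2.22 (SD over 4 lists; exact sign-flip permutation p of 1). The sign turned with the setting, and without windows that have a copy elsewhere the difference was 2.27 points (exact p of 0.125). DRACH was near saturation in both kinds of window, at 95.3% to 96.8% for noncoding and 94.2% to 95.7% for coding exon summits. It differed by 0.830 points ± 1.05 (SD over 4 lists; exact sign-flip permutation p of 0.375, adjusted 0.469). Within 25 nt, where fewer windows held it, the shares were 76.1% to 84.4% and 75.8% to 78.7%, and the difference was 3.26 points (exact p of 0.375).

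In the mean of the lists the motif was densest next to the summit. In the 20 nt upstream of it, 6.81 GGACT per 100 noncoding summits ± 2.83 (SD over 4 lists) lay on the gene strand against 1.63 ± 0.907 on the opposite strand. The lists differed on the gene strand there, with 4.22 and 4.56 in shCTR and 8.74 and 9.73 in shMettl14. The 20 nt upstream were the densest step in both shMettl14 lists only. The shCTR A list was highest in the 20 nt downstream of the summit, at 6.49, and shCTR B 60 to 80 nt downstream, at 6.64. From 20 to 40 nt downstream the order was reversed, with 5.844 and 5.809 in shCTR and 3.599 and 3.113 in shMettl14. Differences between the hairpins at single steps were not tested. In the outermost 20 nt upstream, 180 to 200 nt away, the means were 2.17 ± 1.33 on the gene strand and 1.53 ± 0.538 on the opposite strand. Coding exon summits held 5.19 ± 0.560 and 1.60 ± 0.106 next to the summit.

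**Figure D3:**
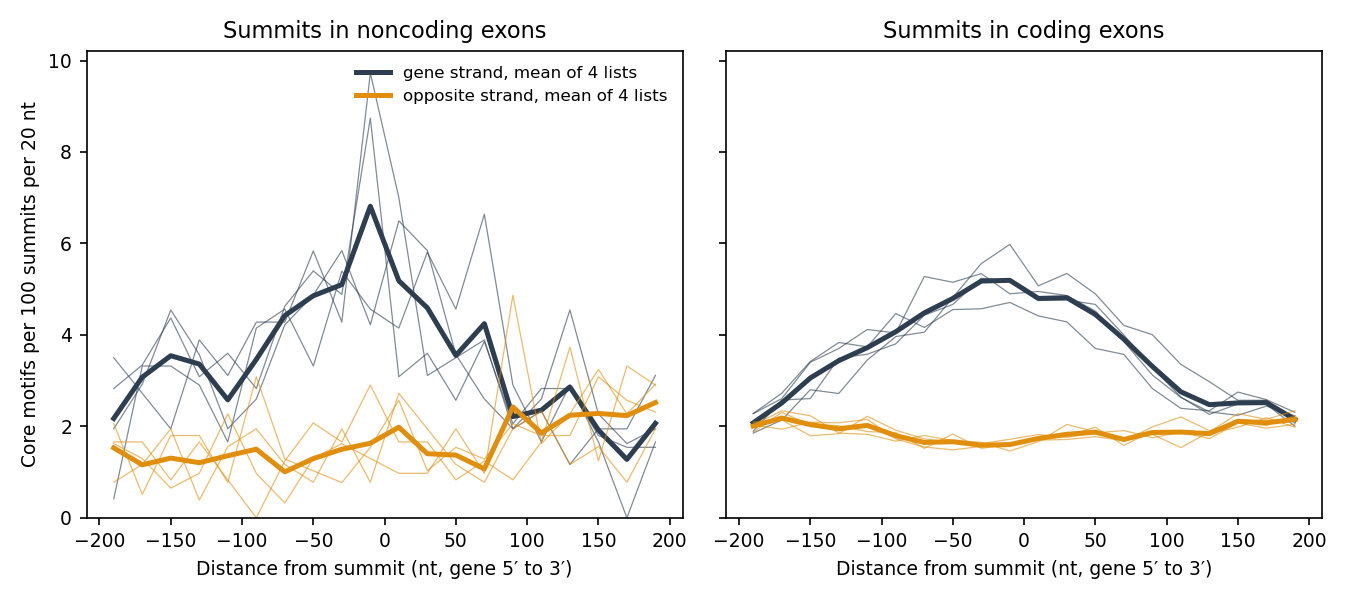
Number of core motifs (GGACT) per 100 summits in steps of 20 nt (vertical axis) by distance from the summit in nt along the gene (horizontal axis), for noncoding (left) and coding (right) exon summits. Thin lines are the 4 lists and thick lines their mean. The mean of the gene strand is highest next to the summit, at 6.81 in noncoding exons. The shCTR lists are at 4.22 and 4.56 and the shMettl14 lists at 8.74 and 9.73 there. From 20 to 40 nt downstream the order is reversed, with shCTR at 5.844 and 5.809 and shMettl14 at 3.599 and 3.113. The opposite strand in noncoding exons stays between 1.01 and 2.52 in the mean.

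Among classes, with the summits of all 4 lists pooled, GGACT on the gene strand was found near 31.6% of the 95 bidirectional promoter summits, 23.4% of processed transcript, 22.7% of TEC, 22.2% of lincRNA, 19.4% of antisense and 17.9% of pseudogene summits. In each of these classes the opposite strand was lower, at 5.56% to 9.09%. In the sense intronic class, 31 summits of Peg13, the share was 9.68% on the gene strand and 0 of 31 on the opposite strand. DRACH was found near 71.0% of them on either strand. These summits lie in 2 regions of 1 gene, so the count of 0 sets no limit on the share. Summits of 1 region in several lists are the same site seen again, so these shares are descriptions.

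Noncoding peaks were built from fewer fragments than coding ones. The median IP pileup (how many fragments overlapped at the summit, recovered from the deposited values) was 11, 11, 10 and 9, against 18, 18, 15 and 14 at coding exon summits. The median local background was lower too, at 0.323, 0.281, 0.301 and 0.207 fragments against 1.13, 1.05, 0.977 and 0.671. The fold enrichment, which sets one against the other, had medians of 7.56, 7.76, 7.42 and 7.25 against 8.08, 8.30, 7.59 and 8.39. As a percentile within the list, where 100 is the strongest summit, noncoding summits averaged 48.5, 47.4, 49.5 and 43.9 and coding exon summits 51.6, 51.8, 51.5 and 51.8. The noncoding mean was the lower in 4 of 4 lists, by 4.35 percentile points ± 2.60 (SD over 4 lists; exact sign-flip permutation p of 0.125, adjusted 0.208). Ranked by pileup instead, the gap was 17.9 points. Input abundance of these RNAs was not analysed here, so a lower pileup and a less abundant RNA cannot be told apart.

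Some noncoding regions were among the most enriched of their lists all the same. The 12 regions with the highest mean percentile over the 4 lists all lay between 91.2 and 99.8, with folds of 11.4 to 37.1, and A730017L22Rik followed at 91.0. At the top was 2610507I01Rik (ENSMUSG00000085882.1), a processed transcript, with folds of 26.3, 37.1, 32.3 and 32.1 over background. These rested on pileups of 38, 50, 37 and 41 fragments, and its percentiles ran from 99.60 to 99.99. Its windows had up to 1 copy elsewhere in the genome. The groups overlapped.

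AI506816 (ENSMUSG00000105987.4) followed with folds of 21.4, 24.3, 20.6 and 30.6 and pileups of 82, 84, 71 and 74. Its windows had up to 22 copies elsewhere in the genome, and their part in the value was not tested. Its summits also lay in a RefSeq coding exon, of Gm42226. The Zswim6 locus (ENSMUSG00000032846.10) had folds of 24.9, 18.4, 18.5 and 26.6 on pileups of 48, 52, 37 and 40 fragments. In both regions the folds of the hairpins overlapped, while the pileups were lower in both shMettl14 lists. So were the medians of those lists over all summits, which do not measure sequencing depth.

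2900097C17Rik (ENSMUSG00000102869.2), the mouse Norad gene, whose RNA binds Pumilio proteins and guards chromosome stability, had the highest pileups of the 12 in the shCTR lists. Its pileups were 95, 103, 65 and 54 fragments, with folds of 17.9, 23.8, 22.3 and 15.8 and percentiles of 94.9, 98.7, 99.4 and 91.2. The pileups were lower in both shMettl14 lists, while the percentiles overlapped. The medians of the lists over all summits, 16, 16, 14 and 13, fell relatively less. The cause of the lower pileups was not tested. Its windows had up to 5 copies elsewhere in the genome. The Tug1 region printed above, in a lncRNA first described in the retina, had folds of 17.8, 15.3, 15.1 and 18.6. Gm20796 (ENSMUSG00000093800.2), a processed pseudogene whose window has a copy in a coding exon of Prr14l, had folds of 23.3, 15.6, 16.1 and 19.1. Gm4430 (ENSMUSG00000103009.1), a TEC locus, had 18.9 and 20.3 in shCTR and 14.6 and 15.2 in shMettl14, without overlap (adjusted limma p of 0.999). The folds of B130055M24Rik, 21.2 and 17.1 against 15.4 and 15.6, and of C030014I23Rik, 18.9 and 17.7 against 11.4 and 16.3, did not overlap either. Among the 151 regions in all lists 20 (13.2%) were lower in shMettl14 without overlap and 19 (12.6%) higher, against 18.7% and 13.4% of all shared regions.

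**Figure D4:**
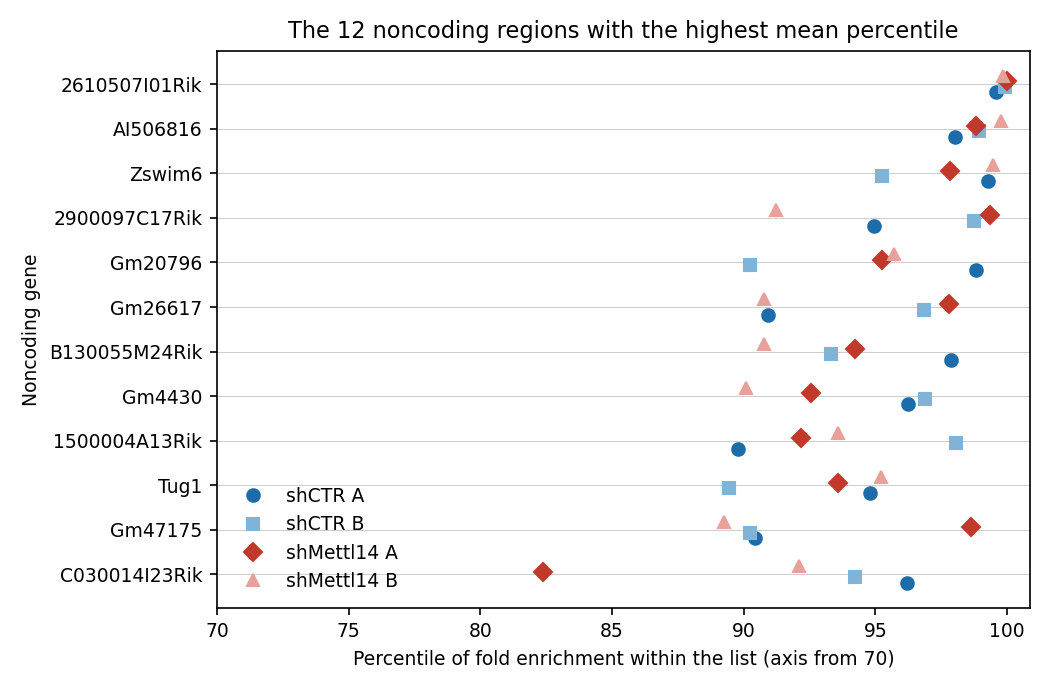
Percentile of fold enrichment within each list (horizontal axis, starting at 70, where 100 is the strongest summit) for the 12 noncoding regions with the highest mean; points are the 4 lists. The points of 2610507I01Rik sit at 99.60 to 99.99, and the lowest point is C030014I23Rik in shMettl14 A at 82.4.

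The remaining 5 of the 12 were Gm26617, B130055M24Rik, 1500004A13Rik, Gm47175 and C030014I23Rik. Their folds ran from 11.4 to 22.5. Windows of Gm26617 and 1500004A13Rik have a copy in a coding exon, of Zxdb and of Gon4l. In the classes without a region among the 12, the strongest in all 4 lists were 2410022M11Rik for bidirectional promoter RNAs (folds of 10.1, 12.4, 13.1 and 14.3), Peg13 for the sense intronic class and Gm23935 for miRNA genes. Gm23935 had pileups of 181, 188, 151 and 111 fragments but folds of only 4.98, 7.19, 6.07 and 5.80, and its windows had up to 4 copies.

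The genes with most summits over the 4 lists were Peg13 with 31, Tug1, A730017L22Rik and Malat1 with 25 each, Gm42047 with 23, Gm18853 with 18, Gm7265 with 14, and Gm37233 and Gm37494 with 13 each. Peg13 (ENSMUSG00000106847.1, chromosome 15, 72805600 to 72810324), an imprinted RNA expressed from the paternal copy, had 7, 4, 11 and 9 summits, all in 2 regions. Its stronger region had folds of 18.3, 8.57, 11.99 and 14.8, so the shCTR lists enclosed the shMettl14 ones.

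Tug1 (ENSMUSG00000056579.18, chromosome 11, 3639785 to 3649673) held 6 regions, of which 4 were found in all 4 lists. Besides the region printed above, its second strongest had percentiles of 94.7, 80.8, 96.8 and 87.5 on pileups of 31, 28, 27 and 22 fragments. The weakest of the 4 had 27.3, 40.7, 34.5 and 7.10. The percentiles of the 2 strongest overlapped, while the weakest lay below the other 3 in every list.

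Malat1, a nuclear lncRNA of speckles and a well studied carrier of m6A, had 6, 3, 9 and 7 summits. Its region found in all lists had pileups of 159, 173, 65 and 120 fragments, but percentiles of only 25.6, 57.3, 32.9 and 56.2. Neat1, the scaffold of paraspeckles, had 3, 1, 4 and 3 summits in 1 region, with percentiles of 17.2, 35.0, 30.9 and 38.7. Both had pileups above the list medians of 13 to 16 fragments in each list, and no percentile above 57.3.

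Of the nuclear and X-chromosome lncRNAs set as a list, 4 of 11 had a noncoding summit, namely Malat1, Neat1, Tug1 and 2900097C17Rik. Xist, Tsix, Jpx, Ftx, Firre, Pvt1 and Miat had none. Of the imprinted lncRNAs 5 of 9 had one. Besides Peg13 these were Meg3 with pileups of 45, 37, 38 and 28 fragments, Rian with 36, 23, 27 and 17, Kcnq1ot1 with 8, 9, 10 and 8 in its main region, and Airn with a single summit of 8 fragments in shMettl14 A. Among miRNA host genes 2 of the 9 annotated had a summit, Mir22hg in every list and Mir99ahg in shCTR A alone. None of the 13 snoRNA host genes annotated as noncoding, such as Gas5 and Snhg1, had one. Of the 18 annotated lncRNAs described in smooth muscle or vessel wall, 6 had a summit. Malat1, Neat1, Tug1 and Meg3 did so in every list, while Fendrr had 1 summit of 9 fragments in shCTR A and Hoxaas2 1 of 8 fragments in shMettl14 A. A gene without a summit may be unmethylated or too scarce, and these cannot be told apart here.

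Pseudogene peaks fell on sequence with close relatives. Of the 386 pseudogene summits, 299 (77.5%) had a copy of their 101-nt window elsewhere in the genome with at least 95% identity over at least 95% of its length, and for 231 (59.8%) a copy lay in a coding exon. For antisense RNAs the share with any copy was 6.76%, and for lincRNAs 22.0%. Of the 152 pseudogene regions, 87 had a copy in a coding exon, and in 79 of these at least 1 copied coding gene had a coding exon summit of its own, 70 of them in all 4 lists. Of all 21924 protein-coding gene names, 24.6% had a coding exon summit in any list. The units are unlike, because a region counted once any of its copied genes had a summit, and Gm21926 alone matched many genes. The gene names were also not limited to genes expressed in these cells, so the shares cannot be compared directly. The authors kept uniquely mapped reads, yet how reads were shared between such copies cannot be read from a peak list, and the pseudogene assignments are uncertain.

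Only 6 coding genes were matched by windows of more than 1 pseudogene. Windows of 6 pseudogenes, Gm18853 and Gm18852 among them, matched Gvin1 and Gm4070, members of the very large interferon-inducible GTPase family. Windows of 5 matched Cdh11, which encodes a cadherin of mesenchymal cells, 3 matched Zbed4, 3 Ppp4r2 and 2 Tulp4, and each of these coding genes had a coding exon summit in all 4 lists. Gm18853 itself (chromosome 7, 106186404 to 106189999), inside the Gvin1 gene, held 6 regions, and its strongest had percentiles of 88.0, 80.3, 87.9 and 83.4. Copies were not limited to pseudogenes, as all 4 Gm42047 regions had windows with copies, up to 52 to 67 per region. Setting aside the 62 regions with a summit in a RefSeq coding exon and the 157 with a copy left 225 of the 430 regions, of which 70 were found in all 4 lists.

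To determine which noncoding regions were lost or gained after Mettl14 knockdown, a region was counted as found in a list where any peak of that list overlapped it. Of the 430 regions, 151 (35.1%) were found in all 4 lists, against 4929 of all 11361 regions (43.4%). Of the 151, 137 had a noncoding summit in every list and 5 in 1 list only. Where a list had none, an overlapping peak with its summit elsewhere was counted. In exactly 1 list were 147 (34.2%), against 29.1% of all regions, and 76 of the 147 were in shMettl14 A. The median of the mean percentile was 60.8 for the regions in all lists and 27.2 for those in 1 list.

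Both shCTR lists and neither shMettl14 list held 5 noncoding regions (1.16%), against 194 (1.71%) of all regions. Both shMettl14 lists and neither shCTR list held 7 (1.63%), against 203 (1.79%) of all regions. Each share was near or below that of all regions. These counts depended on every list, because they became 27 and 27 when shCTR A was left out and 32 and 16 when shCTR B was. Leaving out shMettl14 A gave 28 and 29, and leaving out shMettl14 B gave 9 and 83.

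The 12 regions had pileups of 4 to 20 fragments, and those of Gm15222 were above the medians of its lists over all summits, 14 and 13. The control-only regions lay in Gm7451, Gm1818, 6820431F20Rik, 2610035D17Rik and Gm10654, the first 3 of them pseudogenes. The summits of Gm10654, annotated as TEC, lay in an exon that RefSeq gives as coding. Gm7451 had percentiles of 70.5 and 7.33 in the shCTR lists on 10 and 4 fragments. Gm1818 had its noncoding summit in shCTR B only, the shCTR A peak being an overlapping interval. The knockdown-only regions with the highest percentiles lay in Gm15222, D430020J02Rik, Gm2682, Gm18853 and 4930556M19Rik. Windows of Gm1818, D430020J02Rik, Gm18853 and 6820431F20Rik had up to 1, 1, 2 and 6 copies elsewhere. Gm15222 (ENSMUSG00000086746.2, chromosome 14, 46387727 to 46388200), an antisense RNA across Bmp4, a ligand of the TGF-beta family, had the deepest of these peaks, with 20 and 16 fragments and percentiles of 56.1 and 36.4. The authors' interval file for shCTR covered 3 of the 5 control-only regions, and that for shMettl14 covered 7 of the 7 knockdown-only ones. Over all 430 regions these files covered 168 and 176, with 138 in both.

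Whether a region kept its place among the peaks was tested on the 151 regions that every list shared. Within each list, all 4929 shared regions were ranked by their highest fold enrichment. That value could come from any peak in the region, also one with its summit outside noncoding exons. The ranks were turned into normal scores and compared between the hairpins with limma. No noncoding region passed an adjusted p of 0.05, and neither did any of all 4929 regions (0 called, 0%), with a smallest adjusted p of 0.796 in both sets. Without shMettl14 A, 3 of 5076 regions passed, with a smallest adjusted p of 0.0195, and none of them was noncoding. That fit has a single shMettl14 list, which is assumed to vary as the shCTR lists do. At an unadjusted p under 0.05, 4 of the 151 (2.65%) were counted, against 243 (4.93%) of all shared regions. Of the 151, 82 had a higher and 69 a lower score in shMettl14, and the median change was 0.0486 against 0.00212 over all shared regions. Leaving out 1 list moved that median to 0.0182 without shCTR A and 0.127 without shMettl14 B, and without shMettl14 A it was 0.0346 against 0.0348 over all. Which share was the higher turned with the setting. It was 8.14% against 5.67% of all regions without shCTR B (14 of 172) and 6.94% against 6.56% without shMettl14 B (12 of 173). With pileups ranked in place of folds it was 5.3% against 4.42%, and with Fisher's exact test on the recovered pileups, where none passed adjustment, 3.31% (5 of the 151) against 2.56%. Ranks do not show a loss shared by all sites, and a lower rank and a more abundant input cannot be told apart here.

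**Figure D5:**
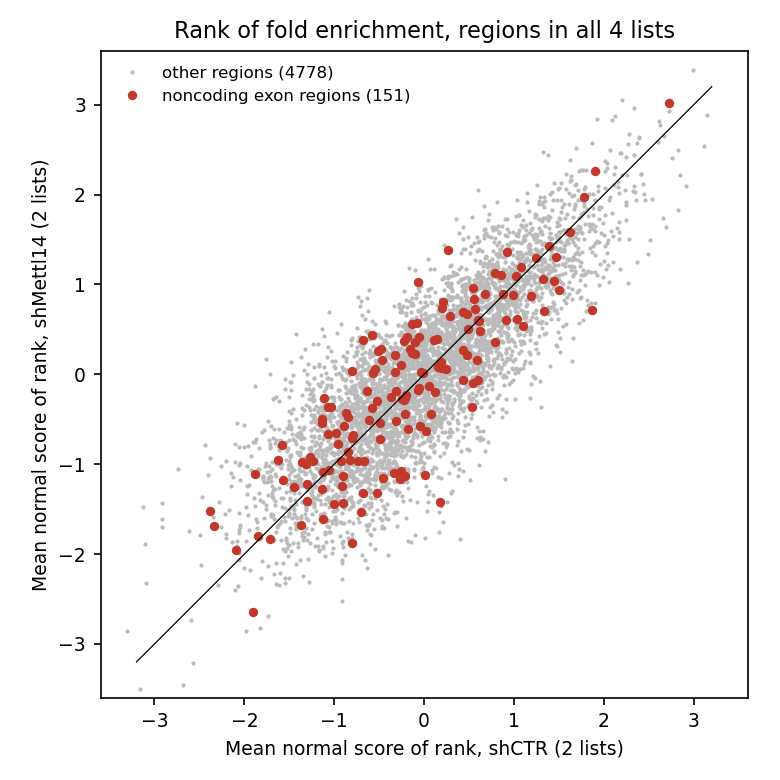
Mean normal score of the rank of fold enrichment over both shCTR lists (horizontal axis) and both shMettl14 lists (vertical axis) for the 4929 regions found in all 4 lists; large points are the 151 noncoding exon regions, small points the others, and the line marks equal scores. Noncoding points lie on both sides of the line, 82 above and 69 below.

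The smallest p belonged to Gm12454 (ENSMUSG00000087142.7, chromosome 4, 43505707 to 43506101), an antisense RNA 8750 nt past the end of Tpm2, which encodes a muscle tropomyosin. Its folds were 12.1 and 10.1 in shCTR and 5.65 and 5.34 in shMettl14, on pileups of 12, 10, 5 and 6 fragments. The hairpins did not overlap, and the score changed by −1.60 (SE 0.49), with an adjusted limma p of 0.796. Next among the lower ones were 4930470G03Rik and Gm37622, at −1.15 and −1.12. Gm37622, antisense to BC034090, had percentiles of 82.0 and 54.1 in shCTR and 43.6 and 16.2 in shMettl14, and its summits lay in a RefSeq coding exon of BC034090 itself. The 4930470G03Rik region had a noncoding summit in shMettl14 B only, the peaks of the other lists having theirs outside its exons. The score was higher in shMettl14 by 1.09 for Gm6741, a processed pseudogene with a copy in a coding exon of Nanp, by 1.06 for Gm49492 and by 1.01 for Gm48768, both bidirectional promoter RNAs. Gm49492 had pileups of 9, 7, 15 and 9 fragments and Gm48768 of 9, 10, 15 and 10, so the higher pileup was that of shMettl14 A in both. Adjusted limma p-values were 0.951 to 0.989 for these 5 regions. Without shMettl14 A the changes of Gm6741, Gm49492 and Gm48768 were 0.502, 0.612 and 0.616. Without shCTR A they were 0.521 for Gm48768 and −0.741 for Gm37622.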

How the data were processed

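The authors aligned reads to mm10 (GRCm38) with STAR, selected unique alignments with SAMtools and ran MACS2 on every IP sample with its input as control (options not given in the sources used here). Each deposited list gives an interval, its summit, the fold enrichment over local background (a ratio) and −log10 of the p-value and q-value (the latter at least 2.005). The authors also deposited 2 interval files of replicate overlaps, with start and end only. IP pileups were solved from fold and −log10 p as Poisson counts (largest error 0.000151); they carry counting error only, and total read numbers were not analysed here.

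Summits were placed in GENCODE M21 exons. Lists were compared by exact permutation, within-list differences by exact sign flips, and ranks by limma 3.58.1 in R 4.3.3 (two-sided, Benjamini-Hochberg, threshold 0.05, no replicate block). Copies were sought with blastn 2.17.0 (word size 28). Scripts were tested on simulated data. Named were the 12 regions in all 4 lists with the highest mean percentile, the 8 genes with most summits (ties kept), the strongest region of each class, up to 5 control-only and 5 knockdown-only regions, 3 regions per direction with the smallest rank p, and genes of fixed lists. Members and lists were chosen with earlier results of these data known. Tables were made with pandas 2.3.3, numpy 2.4.6 and scipy 1.17.1 under Python 3.11.15.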

Additional observations from a re-analysis of the deposited data

How the results depend on the processing

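Lists had low pileups (a median of 9 to 11 fragments at noncoding summits), 2 lists per hairpin cannot give an exact p below 0.333, and 4 within-list differences none below 0.125. The strand difference of GGACT (8.70 to 19.3 points), the lower fold enrichment percentile (−17.9 to −3.15) and the lower share in long exons (−7.10 to −1.32) kept their direction in every alternative run, as did the difference in the share of noncoding summits (0.0124 to 0.176 points), though the hairpins overlapped in 3 of them. The count of noncoding regions with a changed rank was 0 in every alternative, while 3 of all regions passed without shMettl14 A. Leaving out 1 list moved the regions of 1 hairpin only from 12 to between 48 and 92, those in all remaining lists from 151 to between 153 and 173, GGACT noncoding minus coding from −0.0261 to between −0.956 and 0.789 points, and the share past coding genes from 0.111 to between −1.05 and 1.27 points. The share past coding genes turned to −0.580 points within 2 kb and −0.293 within 10 kb. GGACT noncoding minus coding turned to 1.52 points within 25 nt, 0.901 around interval midpoints and 2.27 without copied windows, and DRACH to −0.0505 within 100 nt. Without copied windows, an alternative chosen like that without RefSeq coding exons after seeing the data, 98 regions were in all 4 lists and 7 in those of 1 hairpin only. The cause of these changes was not tested, other than the smaller number of lists or summits used.

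The labels give both hairpins the letters A and B, which with 2 pairs were not taken to pair the samples (correlation of the deviations of A from the group means 0.0795 over 4929 regions). A replicate block by letter called 0 noncoding regions, with 6 (3.97%) at an unadjusted p under 0.05 against 5.92% of all regions, and gave the same difference of 0.0668 points in the share of summits (exact p of 0.5).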
